A study of Mus musculus with 4 samples.

Results

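Blood stem cells of mouse marrow are recognised by a small set of genes that are switched down as progenitors mature. The 10 genes described here are Hlf, Mecom, Prdm16, Mllt3, Ndn, Cd34, Procr, Eng, Esam and Fgd5, matched to probe sets by platform gene symbol. They were chosen with earlier results of these data known. They are 10 of the 18193 genes that the array reads with a probe set of a single symbol, and they have 26 of its 45037 probe sets. The first 5 encode proteins that work in the nucleus, the next 4 surface proteins, and Fgd5 an activator of the small GTPase Cdc42.

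Stem cells keep dividing rarely and renew themselves under transcription factors such as Hlf, Mecom and Prdm16, and the surface proteins Procr and Esam are used to sort them. Lymphoid-primed multipotent progenitors, or LMPPs, lie a step further along: they have gained high Flt3 and still carry Kit and Sca-1. In adult mice Cd34 is low on the most primitive stem cells and is gained on multipotent progenitors, so it stands in this set as a gene of the progenitor side. Lyl1 is a basic helix-loop-helix factor of blood progenitors that pairs with E proteins on E-box sequences and is a relative of Tal1.

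LMPPs were sorted from marrow of wild-type and of Lyl1-null C57Bl/6 mice aged 6 to 8 weeks, as lineage-negative cells positive for Kit and Sca-1 that carried much Flt3. The Lyl1-null mice carry a knockout allele, and the labels name no treatment of either group. There were 4 libraries, 2 per genotype, each hybridised to its own expression array. All values are log2 RMA expression values as deposited, and a difference is Lyl1-null minus wild type. The labels do not tell whether libraries of a group come from separate or pooled mice, and p-values then gauge only how these samples spread, which may be technical. In bulk cells, fewer cells of a kind and less RNA per cell cannot be told apart.

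The libraries labelled as replicates 1 and 2 of the Lyl1-null group are called labelled-null library 1 and labelled-null library 2 here, because the second went against its label. Lyl1 read 12.34 and 12.29 in wild type, 5.14 in labelled-null library 1 and 10.32 in labelled-null library 2. Xist, the RNA that silences 1 X chromosome in females, was at 14.26 in labelled-null library 2 and between 5.81 and 6.30 in the others. Y-linked Eif2s3y measured 8.44 in the same library, lower than the 10.07 to 10.15 elsewhere yet well above the filter. Each result is therefore given for the 2 labelled-null libraries separately. The labelled cell type was read from Kit, Flt3, Ptprc, Cd34 and Cd48, all above the expression filter in all 4 libraries. Ly6a was not analysed here. All 5 markers read lower in both labelled-null libraries than in both wild-type libraries, where 24.0% of all genes tested did. Their median difference was −0.56, with Cd48 at −1.03 and Ptprc at −0.26.

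None of the stem cell identity genes passed the test over all genes, yet Ndn, Hlf and Cd34 read lower in both labelled-null libraries than in both wild-type libraries. Ndn stood lowest, at a 2.56-fold lower mean. Hlf was 1.53-fold and Cd34 1.47-fold lower. Procr read higher by 0.46 on the log2 scale, and Eng, Esam, Mecom, Mllt3 and Prdm16 overlapped between the groups in their brightest probe sets. The plot of levels by library shows these groups side by side.

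**Figure D1:**
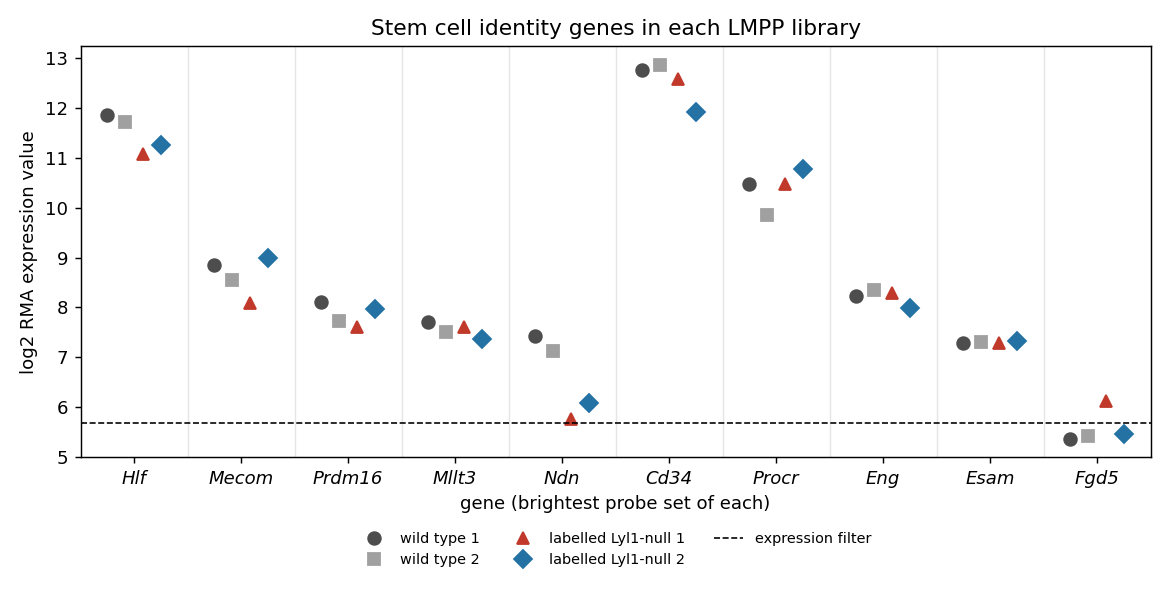
Log2 RMA expression value (vertical axis) of the brightest probe set of each of the 10 genes (horizontal axis), with 1 point per library and the expression filter as a dashed line. For Hlf, Ndn and Cd34 both labelled-null libraries lie below both wild-type libraries, and Fgd5 lies at the filter.

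The test was limma's moderated test on the brightest probe set of each gene, for genes whose mean reached 5.69, the median over all probe sets. Of the 10 genes, 9 passed this filter and Fgd5 did not. Of these 9, 0 passed at an adjusted p of 0.05 (Benjamini-Hochberg over 11196 genes), where 0.00893% of all genes tested did, which is the 1 gene Ctse. At an unadjusted p under 0.05 there were 2 of 9, Ndn and Hlf, where 6.84% of all genes tested had such a p. Lower values without overlap were read for 3 of 9 (24.0% of all genes tested) and higher values without overlap for 1 of 9 (18.7%). The median difference of the 9 genes was −0.15, beside −0.05 over all genes tested. It was −0.23 in labelled-null library 1 and −0.24 in labelled-null library 2, beside −0.01 and −0.08 over all genes tested.

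Calls appeared when 1 library was left out. Without labelled-null library 2, 0 of the 9 passed, where 0.196% of all genes tested did. Without labelled-null library 1, which leaves the library that went against its label, 2 of the 9 fell, Ndn and Cd34, where 14.8% of all genes tested were called. With a single library left, a group is assumed to vary like the other.

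Ndn encodes necdin, a growth-suppressing protein of the MAGE family that holds stem cells out of the cell cycle, and is imprinted, with only the paternal copy active. Its brightest probe set (1435383_x_at) read 7.43 and 7.12 in wild type, 5.75 in labelled-null library 1 and 6.08 in labelled-null library 2. Both wild-type values thus lie more than 1 log2 unit above both others, and the 2 labelled-null libraries stand close to the filter. The means were 7.27 ± 0.22 and 5.92 ± 0.23 (SD, n = 2 each), a difference of −1.35 (SE 0.21, limma adjusted p = 0.297). The size of this difference reached that of 99.6% of all genes tested or exceeded it. Relative to the wild-type mean, Ndn stood at −1.52 in labelled-null library 1 and at −1.19 in labelled-null library 2. The difference was thus larger in size with only labelled-null library 1 in its group. The call nevertheless came with only labelled-null library 2, where many more of all genes tested were called.

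Ndn has 8 probe sets, more than any other of the 10 genes, and they did not all read alike. The 4 above the filter were lower in both labelled-null libraries, with differences from −2.20 to −0.65. The one with the greatest difference (1455792_x_at) read 7.15 and 6.57 in wild type, 4.78 in labelled-null library 1 and 4.54 in labelled-null library 2. Of 45037 probe sets tested singly in limma, it had an adjusted p of 0.223 (SE 0.24). The probe set 1435382_at, whose name carries no mark of shared probes, differed by −1.54 (SE 0.26). Its labelled-null mean of 5.63 was below the filter, so it passed only through its wild-type values. Of the 4 dim ones, 1415923_at differed by −0.85, 1438939_x_at −0.11, 1456575_at 0.21 and 1438978_x_at 0.53. By the array's naming, probes of a set ending in _x_at may also match other transcripts, and 5 of the 8 Ndn sets end so.

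Hlf encodes a PAR-type leucine zipper factor whose expression marks stem cells and keeps them from cycling. It read 11.85 and 11.72 in wild type, 11.08 in labelled-null library 1 and 11.27 in labelled-null library 2 (1434735_at). The groups did not overlap, and the gap between them was wider than the spread within either. The difference was −0.62 (SE 0.17, limma adjusted p = 0.644), from 11.79 ± 0.09 to 11.17 ± 0.13 (SD, n = 2 each). The second probe set (1434736_at) gave 10.26 and 10.15 in wild type, then 9.44 and 9.83, a difference of −0.57 (SE 0.19). Over 15 alternatives the Hlf difference stayed between −0.71 and −0.52, with adjusted p-values from 0.0813 to 0.9999.

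Cd34 encodes a sialomucin of progenitors and of vessel lining. It read 12.76 and 12.87 in wild type, 12.59 in labelled-null library 1 and 11.92 in labelled-null library 2. The groups did not overlap, but most of the difference of −0.56 (SE 0.25, limma adjusted p = 0.644) came from the latter library. Against the wild-type mean, labelled-null library 1 stood at −0.23 and labelled-null library 2 at −0.89. With only the latter in its group Cd34 fell by 0.89 on the log2 scale (SE 0.17, adjusted p = 0.0243), and with only the former the adjusted p was 0.857. Beside it, the sorting markers Kit and Flt3 differed by −0.61 and −0.22 in labelled-null library 1 and −1.196 and −0.76 in labelled-null library 2. The part of the sort in the Cd34 values was not tested.

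The sequences upstream of these 3 genes are shown because they are the members whose groups did not overlap downward, and because Lyl1 complexes are known to bind E-boxes and GATA sites. The letters are the 250 bases before the start of each gene, from RefSeq's GRCm38.p6, read 5′ to 3′ on the gene's strand. Capitals mark the E-box CANNTG, which reads the same on both strands, and GATA on either strand. The Ndn window is chr7:62348027-62348276 (plus strand), the Hlf window chr11:90390918-90391167 (minus strand) and the Cd34 window chr1:194938571-194938820 (plus strand).
Ndn: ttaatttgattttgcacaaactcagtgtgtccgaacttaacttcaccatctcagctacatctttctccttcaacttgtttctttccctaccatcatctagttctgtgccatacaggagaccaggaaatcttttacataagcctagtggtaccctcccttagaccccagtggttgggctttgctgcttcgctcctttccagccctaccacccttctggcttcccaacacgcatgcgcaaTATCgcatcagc
Hlf: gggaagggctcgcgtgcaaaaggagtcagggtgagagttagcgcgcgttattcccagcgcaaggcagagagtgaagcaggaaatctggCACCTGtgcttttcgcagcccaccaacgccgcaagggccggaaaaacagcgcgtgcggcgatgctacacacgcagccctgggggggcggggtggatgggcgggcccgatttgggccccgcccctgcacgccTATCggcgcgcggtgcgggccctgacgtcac
Cd34: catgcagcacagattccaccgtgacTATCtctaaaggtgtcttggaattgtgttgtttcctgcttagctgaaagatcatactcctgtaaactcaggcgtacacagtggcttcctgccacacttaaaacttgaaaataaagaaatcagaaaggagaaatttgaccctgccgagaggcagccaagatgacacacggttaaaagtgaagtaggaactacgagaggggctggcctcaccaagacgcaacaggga

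The Hlf window held 1 E-box, which reads CACCTG, and 1 GATA, while the Ndn and Cd34 windows each held 1 GATA and 0 E-boxes. In RefSeq's table, 9 of the 10 genes had a promoter, with 11 windows in all, as Mecom and Mllt3 have 2 each. Of the 11 windows, 6 held CANNTG and 6 held GATA. Over all 32851 promoter windows of 250 bases, 66.2% held CANNTG and 53.6% held GATA. A match describes letters in a window and is not a bound site.

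Mecom encodes the zinc finger factor Evi1, needed for stem cell upkeep. Its only probe set above the filter (1438325_at) read 8.86 and 8.56 in wild type, 8.08 in labelled-null library 1 and 8.98 in labelled-null library 2. The 2 labelled-null libraries thus lie on opposite sides of wild type. The mean difference of −0.18 (SE 0.33, limma adjusted p = 0.846) was smaller than the SD of 0.64 between those libraries. It was −0.63 with labelled-null library 1 alone and 0.27 with labelled-null library 2 alone. The other Mecom probe sets were dim, with 4.01 and 3.12 as wild-type means.

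Prdm16, a relative of Evi1 with a PR domain and zinc fingers, supports stem cell renewal. Its brightest probe set (1440745_at) read 8.11 and 7.72 in wild type, 7.60 in labelled-null library 1 and 7.97 in labelled-null library 2. The groups overlapped, and the difference of −0.13 (SE 0.22, limma adjusted p = 0.832) was smaller than the wild-type SD of 0.28. The other probe set above the filter differed by −0.36 and lay lower without overlap, by only 0.052 between the nearest libraries. The 2 dim ones differed by −0.41 and −0.05.

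Mllt3 encodes the chromatin reader AF9, which brings Dot1l and the super elongation complex to active genes. It read 7.71 and 7.50 in wild type, 7.61 in labelled-null library 1 and 7.36 in labelled-null library 2. Of these, labelled-null library 1 lay between the wild-type libraries. The difference was −0.12 (SE 0.18, limma adjusted p = 0.812). Against the wild-type mean, another filter-passing probe set stood at −0.12 and −0.55 in labelled-null libraries 1 and 2, and a dim one at −0.21 and −0.17.

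Procr encodes the endothelial protein C receptor, a surface marker of stem cells. It was measured at 10.47 and 9.85 in wild type, 10.47 in labelled-null library 1 and 10.77 in labelled-null library 2. The groups did not overlap, but wild-type replicate 1 and labelled-null library 1 differed by only 0.0027. The wild-type libraries lay 0.61 apart. The difference of 0.46 (SE 0.26, limma adjusted p = 0.644) was about as large as the wild-type SD of 0.43. It ranged from 0.15 without wild-type replicate 2 to 0.76 without wild-type replicate 1.

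Eng encodes endoglin, a co-receptor for TGF-beta and BMP ligands. Its brightest probe set (1417271_a_at) read 8.23 and 8.35 in wild type, 8.30 in labelled-null library 1 and 7.99 in labelled-null library 2. The difference was −0.15 (SE 0.18, limma adjusted p = 0.766), and labelled-null library 1 stood at 0.01 against the wild-type mean. The second probe set (1432176_a_at) was lower in both, at 8.07 and 7.99 in wild type against 7.72 and 7.41, a difference of −0.47 (SE 0.17). The 2 Eng probe sets thus differ on whether labelled-null library 1 was lower.

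Esam encodes a cell adhesion molecule of endothelium, platelets and stem cells. It had the smallest difference of the 9 genes tested, at 7.28 and 7.31 in wild type, 7.29 in labelled-null library 1 and 7.33 in labelled-null library 2. These values lie within 0.053 of one another, and the difference was 0.02 (SE 0.16, limma adjusted p = 0.975).

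Fgd5, a guanine nucleotide exchange factor restricted to stem cells within marrow and to endothelium, was dim. It read 5.37 and 5.42 in wild type, 6.12 in labelled-null library 1 and 5.46 in labelled-null library 2. Only labelled-null library 1 stood clear of the others, so the difference of 0.40 rests on it. In the fit without a filter it had an adjusted p of 0.587 (SE 0.24).

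Over all probe sets, 16 of 26 were above the filter, and 14 of these 16 had a negative difference, beside 59.3% of all probe sets above the filter. Lower values without overlap were read for 10 of the 16, beside 26.4% of all probe sets above the filter. Those 10 belong to 6 genes, with 4 from Ndn and 2 from Hlf, so they are not independent. The Ndn sets 1455792_x_at and 1435382_at passed the filter only through their wild-type values, with labelled-null means of 4.66 and 5.63. Both are counted among the 14 and the 10. The plot of every probe set shows Ndn farthest to the left and the dim probe sets on both sides of 0.

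**Figure D2:**
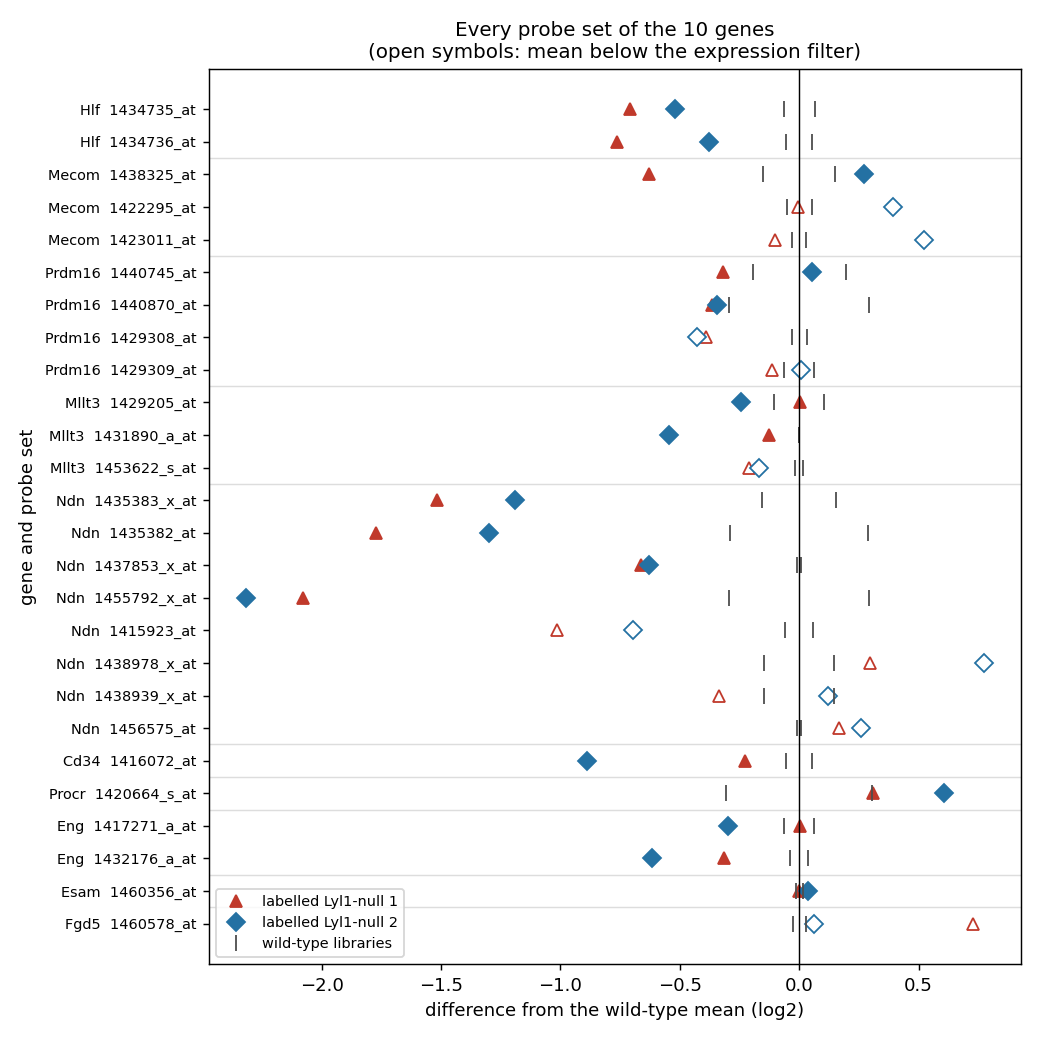
Difference of each library labelled Lyl1-null from the wild-type mean (horizontal axis, log2) for all 26 probe sets (vertical axis), with the wild-type libraries as ticks. Filled symbols mark the 16 probe sets above the filter. The 4 filled Ndn rows and both Hlf rows lie left of the wild-type ticks in both libraries.

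By the rule for likeness, the genes closest to Ndn over the 4 libraries, each as its deviation from its wild-type mean, were Pde7b, Slc16a11 and Cldn5. Their distances were 0.11, 0.21 and 0.35 in log2 units. Pde7b, a cyclic AMP phosphodiesterase, read 7.57 and 7.19 in wild type, then 5.94 and 6.22. Slc16a11, of the monocarboxylate transporter family, read 9.83 and 9.77, then 8.40 and 8.61. Cldn5, a tight junction protein best known from endothelium, read 7.20 and 6.59, then 5.65 and 5.77. Their place below wild type follows from the choice of genes like Ndn.

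Other stem cell genes were read on a longer list of 81 symbols, of which 75 were on the array and 57 were tested. With all libraries 0 of the 57 passed in limma, 14 had an unadjusted p under 0.05 (6.84% of all genes tested), and 39 had a negative difference (56.9% of all genes tested). Without overlap, 26 of 57 were lower (24.0% of all genes tested) and 13 higher (18.7%). The median difference was −0.25, beside −0.05 over all genes tested. It was −0.06 in labelled-null library 1 and −0.38 in labelled-null library 2, beside −0.01 and −0.08 over all genes tested. Against the wild-type mean, Hmga2 stood at −2.54 in labelled-null library 1 and at −2.70 in labelled-null library 2. Runx1 stood at −0.05 and 0.99.

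Among the 57 tested, the smallest p-values belonged to Hmga2, Gata2, Meis1, Gimap6, Kit and Ifitm1, each with a negative difference. The homeobox gene Hoxb5, too dim for the filter, read 4.40 and 4.33 in wild type, then 4.94 and 5.15, and in the fit without a filter its unadjusted limma p of 0.0062 was below that of Kit. Hmga2, a chromatin protein of fetal stem cells, read 9.62 and 10.18 in wild type and 7.36 and 7.20 in the labelled-null libraries (difference −2.62, SE 0.23, limma adjusted p = 0.0976). Gata2, a zinc finger factor of stem and progenitor cells, read 10.48 and 10.47, then 9.54 and 9.77. Meis1, a homeobox partner of Hox proteins, read 11.69 and 11.61, then 10.91 and 10.89. In these 3 the 2 labelled-null libraries stand close together and away from wild type. That follows in part from naming the genes with the smallest p-values.

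Gimap6, a GTPase of the immunity-associated family, differed by −1.08 and −0.87 in labelled-null libraries 1 and 2. The interferon-induced Ifitm1 differed by −0.51 and −0.69. Hoxa9, a homeobox factor of progenitors, read 13.92 and 13.77 in wild type, then 13.80 and 13.83, with overlap. Slamf1, the stem cell surface protein CD150, and Tek, the angiopoietin receptor, had means below the filter. Slamf1 read 4.86 and 5.05 in wild type, then 4.99 and 5.83. Tek stayed between 3.35 and 3.61.

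**Figure D3:**
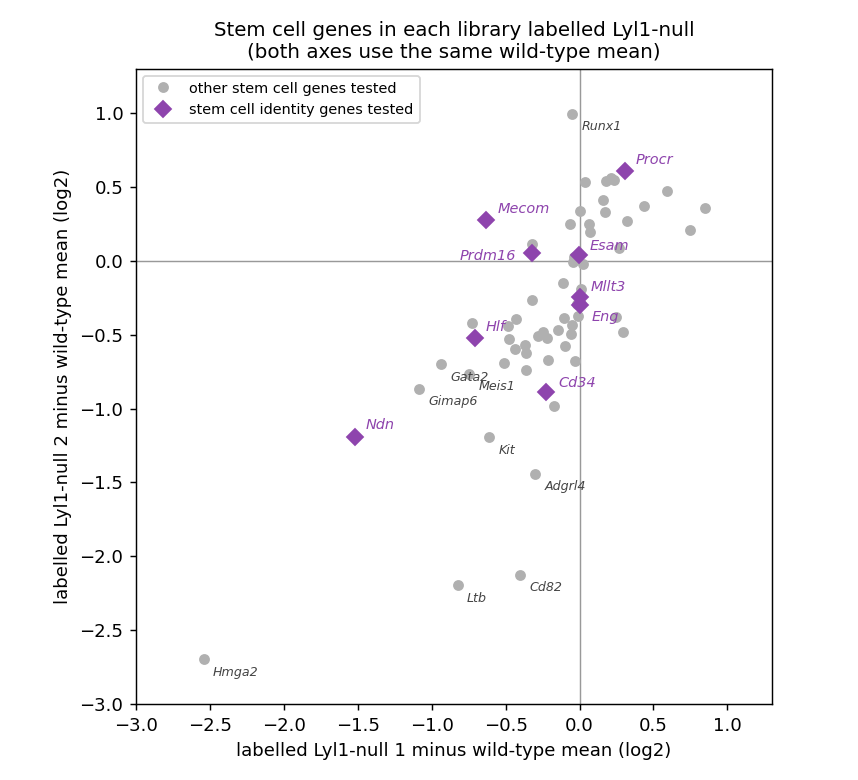
Difference from the wild-type mean in labelled-null library 1 (horizontal axis, log2) and labelled-null library 2 (vertical axis, log2), for the 9 identity genes tested (diamonds) and 57 other stem cell genes (circles). Both axes share the same 2 wild-type libraries. Ndn and Hmga2 lie far to the lower left, Ltb and Cd82 are low mainly in labelled-null library 2, and Mecom lies left of 0 and above it.

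Markers of other cells were read beside these genes, since Cd34, Procr, Eng, Esam and Fgd5 are also genes of endothelium. Of 17 endothelial markers 5 were tested and 0 passed, with 4 positive differences and 1 negative. The mean level of the 17 was 5.15 and 5.10 in wild type, then 5.15 and 5.30. The defining genes Cdh5 (3.76 to 4.12) and Plvap (5.53 to 5.69) were below the filter in each library or at it, and Vwf lay between 4.24 and 4.82. The vascular receptor Kdr read 6.84 and 6.66 in wild type, then 6.96 and 7.06, opposite to Cldn5. The nitric oxide synthase gene Nos3 read 5.44 and 5.54, then 5.79 and 6.27, a difference of 0.54, beside −1.19 for Cldn5. With a wild-type mean of 5.49, Nos3 passed the filter only through its labelled-null values. Its place among the 4 positive differences was thus favoured by the filter.

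Granulocyte and monocyte markers differed more. Of 9, 8 were tested and 0 passed, and 6 had an unadjusted p under 0.05 (6.84% of all genes tested). The median difference was 0.72, with 4 positive and 4 negative differences. Without overlap 4 were higher (18.7% of all genes tested) and 2 lower (24.0%). Without labelled-null library 2 the granule genes Ngp and Ltf and the calcium-binding S100a8 were higher past the threshold, 3 of 8 (0.196% of all genes tested). Without labelled-null library 1, 4 were called higher and 1 lower (14.8%). Ngp read 7.05 and 6.55 in wild type, then 8.87 and 8.73. The primary granule gene Mpo went the other way, at 11.79 and 12.30, then 11.39 and 10.68. Their part in the values of Ndn, Hlf and Cd34 was not tested.

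Stromal, megakaryocytic, erythroid and mature lymphoid markers had 4, 4, 3 and 3 genes tested and 0 passed. All 3 mature lymphoid genes tested were higher without overlap (18.7% of all genes tested), with a median difference of 0.33. Pf4, a platelet chemokine, read 8.61 and 8.22 in wild type, then 7.62 and 7.23. Of the 4 megakaryocytic genes tested 2 were lower and 2 higher without overlap, beside 24.0% and 18.7% of all genes tested. The 2 higher were Itga2b and Gp5, with differences of 0.38 and 0.31. The stromal collagen gene Col1a1 was high in wild-type replicate 2 (7.90) and in labelled-null library 2 (7.22), against 5.23 and 5.47 in the others. Of 14 lymphoid priming genes tested 0 passed, with 5 positive and 9 negative differences (56.9% of all genes tested were negative). Without overlap 5 were lower (24.0% of all genes tested), among them Notch1 (−0.53), Flt3 (−0.49) and Tespa1 (−0.74). Another 3 were higher (18.7% of all genes tested), among them Rag2 (0.73). Il7r, the interleukin-7 receptor, read 9.37 and 9.62 in wild type, then 10.25 and 10.03. Dntt, the terminal transferase of early lymphocytes, read 14.17 and 14.21, then 14.24 and 14.02.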

How the data were processed

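Expression was measured on 4 arrays of sorted mouse LMPPs, 2 wild type and 2 labelled Lyl1-null. Per the submitters' processing notes, the authors ran RMA, so the deposited values are background-corrected, quantile-normalized and probe-summarised log2 expression values. Not given in the sources used here are the RMA version and whether other arrays were included. Columns had medians from 5.65 to 5.76 and were used as deposited. Their SDs were 2.48 and 2.47 in wild type, 2.44 in labelled-null library 1 and 2.34 in labelled-null library 2. The median difference over all genes was 0.06 without a filter, −0.05 with the filter used and −0.09 with a stricter filter at 7.25. The shares given over all genes or probe sets were not matched for expression level. The number of arrays limits the precision.

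Gene symbols came from the platform annotation: 34945 probe sets had 1 symbol, 932 several and 9160 none. The brightest probe set over the 4 libraries stood for its gene, and genes with a mean of at least 5.69 were tested, 11196 of 18193. The test was limma 3.58.1 (lmFit, eBayes, R 4.3.3), two-sided, adjusted with Benjamini-Hochberg at 0.05. Member probe sets were also fitted among all 45037.

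The members and lists were chosen with earlier results of these data known. Named were the 10 genes, the 6 of the longer stem cell list with the smallest p, Slamf1, Tek and Hoxa9, fixed markers, and the 3 genes nearest Ndn, the gene with the largest difference. Any other gene named was chosen after its values were seen. Alternatives were filters, probe set averaging, normalization, priors, array weights, replicate blocks and libraries left out in turn.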

Additional observations from a re-analysis of the deposited data

How the results depend on the processing

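With all 4 libraries 1 gene passed. The count was 4 without a filter, 0 with the mean of probe sets, 2 over all probe sets, 2 with quantile normalization, 2 with median centring, 4 with a trended prior and 5 with array weights. The labels do not say that same-numbered libraries are paired, and their deviations from the group means correlated at −0.41 over 11196 genes. With the replicate number as a block 3 genes passed, and 0 of the identity genes. The crossed replicate block, chosen after seeing the data, gave 1 gene and 0 of the identity genes. Leaving out each library in turn gave 1 to 1652 genes, 0 to 2 of the identity genes and 0 to 12 of the longer list. The highest of each came without labelled-null library 1. Without labelled-null library 2, the counts were 22, 0 and 1.

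The identity genes Ndn, Hlf, Cd34 and Procr kept their sign in each alternative run. Ndn lay below the filter with the mean of probe sets and with the stricter filter, and so had no value there. Quantile normalization turned Eng to 0.0064, Mllt3 to 0.024 and Prdm16 to 0.019, and median centring turned Esam to −0.057. Median centring moved the median of all genes to −0.12, from −0.05. Leaving out 1 library gave Eng −0.30 to 0.0052, Esam −0.0029 to 0.038, Mecom −0.63 to 0.27, Mllt3 −0.24 to 0.0035 and Prdm16 −0.33 to 0.063. None of these 5 passed in any alternative. Low signal limits what Fgd5 and the dim probe sets of Ndn, Mecom and Prdm16 can show.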

Other observations

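Partners and relatives of the 10 genes were read after the values of those genes were seen, on a list of 62 symbols, of which 58 were on the array and 40 were tested. None passed in limma, and 8 had an unadjusted p under 0.05, beside 6.84% of all genes tested. The list's median difference was −0.23, beside −0.05 over all genes tested. Without overlap 18 were lower and 3 higher, beside 24.0% and 18.7% of all genes tested. In their brightest probe set of a single symbol, the imprinted neighbours of Ndn were dim in all 4 libraries. Magel2 lay between 3.59 and 4.09, Mkrn3 between 3.53 and 3.84 and Snrpn between 5.21 and 5.47. Probe sets of several symbols were not read for these genes. The ubiquitin ligase gene Ube3a, from the same imprinted domain, read 8.54 and 8.38 in wild type, then 8.45 and 8.05, with overlap. No test compared Ndn with these neighbours.

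The circadian PAR factors Dbp and Tef, relatives of Hlf, differed by −0.85 and −0.14. Dbp was at −0.01 in labelled-null library 1 and at −1.69 in labelled-null library 2. Nfil3, a repressor at the same DNA sites, read 6.66 and 6.62 in wild type, then 7.50 and 7.21, the opposite direction to Hlf. Among partners of Mllt3, the elongation factor gene Aff4 differed by −0.53 and −0.59 in the 2 labelled-null libraries, and Dot1l differed by −0.46. Of the TGF-beta receptors and Smads that work with Eng, Bmpr2 differed by −0.51 and Tgfbr1 by −0.40, and Smad1 by 0.29 with overlap. The Cdc42 exchange factors Fgd2 and Fgd4, relatives of Fgd5, were lower without overlap, with differences of −0.73 and −0.70, while dim Fgd5 differed by 0.40.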
